A study of Mus musculus with 8 samples.

Results

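Hepcidin, the liver's iron hormone, and the genes that set it or answer to it are described here in 8 whole-liver RNA-seq libraries. The 10 genes, Hamp, Hamp2, Bmp2, Bmp6, Id1, Smad7, Tfr2, Tfrc, Hfe and Slc40a1, were chosen by name and looked up by Ensembl identifier, and all 10 were found among the 56953 identifiers of the files. The libraries came from male mice, 4 labelled as wild-type controls and 4 labelled HSC-PCK1-KO, in which the phosphoenolpyruvate carboxykinase 1 gene is deleted in hepatic stellate cells, which store vitamin A and lay down scar matrix in injured liver. Each library has a number of its own in its title and is taken here as 1 liver. Every mouse, control or knockout, was fed for 8 weeks on CDHFD, a high-fat diet without enough choline that produces fatty, inflamed and fibrotic liver, so no library shows a healthy liver. Which Cre driver made the deletion, and the strain of the mice, the sources used here do not give.

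Hepcidin, the product of Hamp, is secreted by hepatocytes and makes cells degrade ferroportin, the only known cellular iron exporter, which is the product of Slc40a1. Liver sinusoidal endothelial cells release BMP2 and BMP6, which act on hepatocyte receptors together with hemojuvelin, HFE and transferrin receptor 2 and switch on Hamp, Id1 and Smad7 through SMAD proteins, while interleukin 6 raises Hamp through STAT3. Transferrin receptor 1, the product of Tfrc, brings iron into cells, and its messenger RNA is held stable by iron regulatory proteins when cellular iron is low.

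No difference between the genotypes was detected in any of the 10 genes. In edgeR's quasi-likelihood test 0 of the 10 passed an adjusted p of 0.05, where 0% of all 15669 genes tested did. At an unadjusted p under 0.05 there were also 0 of the 10, against 2.36% of all genes, and DESeq2 and limma-voom with sample weights gave 0 of the 10 by either count. In 0 of the 10 did the 4 control values and the 4 HSC-PCK1-KO values fail to overlap, against 1.53% of all genes. The log2 fold changes, HSC-PCK1-KO minus control, ran from -0.27 for Tfrc to 0.46 for Id1, with a median of 0.09, where that of all genes was -0.0055. The 95% interval excluded a 2-fold change in either direction for 8 of the 10, the exceptions being Hamp2 and Id1, and a 1.5-fold change for 5 of them. What the data did hold was a steep inverse relation between Hamp and Tfrc from liver to liver, within both genotypes, which is given after the genes themselves.

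**Figure D1:**
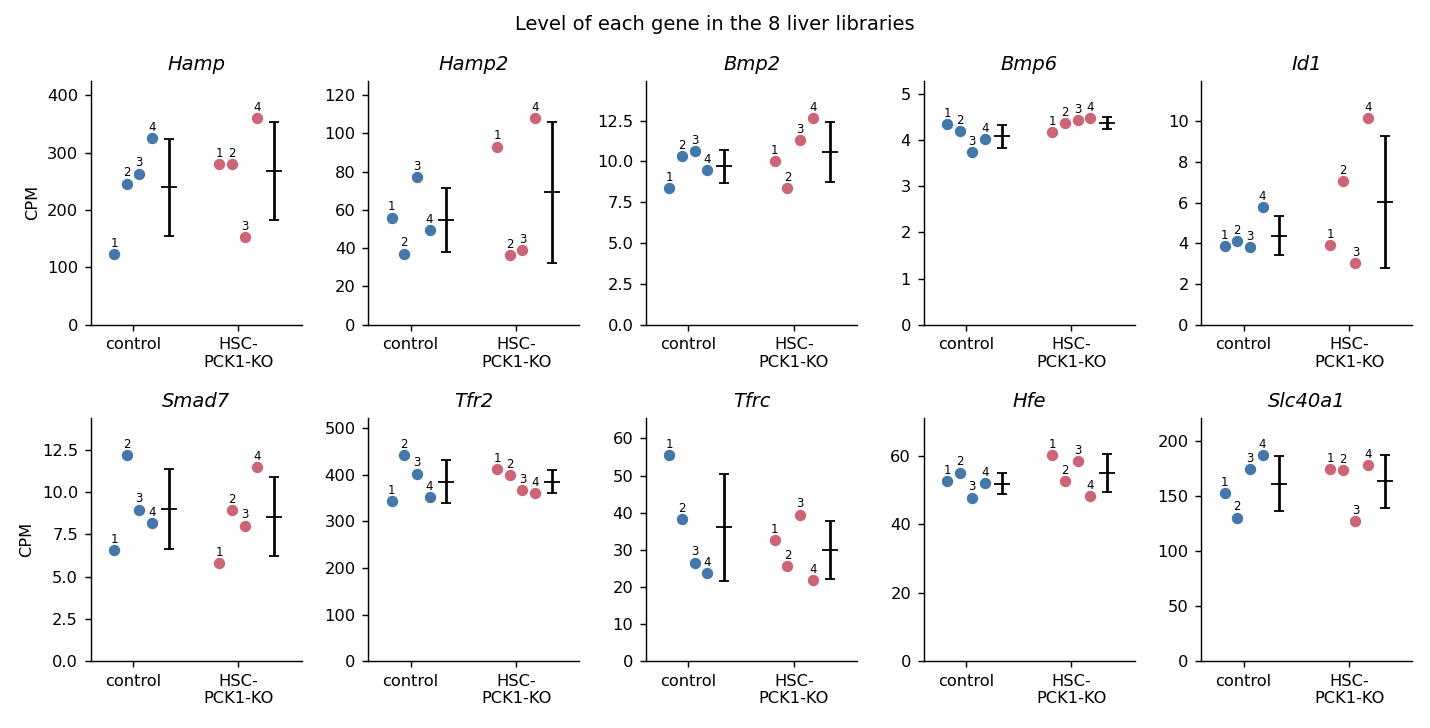
CPM of each of the 10 genes in the 4 control (blue) and 4 HSC-PCK1-KO (red) libraries, each point labelled with its replicate number, with the group mean and SD in black beside the points. The groups overlap in all 10 panels, and Hamp and Tfrc run in opposite directions within each group, control replicate 1 having 123 CPM of Hamp and 55.5 CPM of Tfrc.

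Totals per library ranged from 44695439 to 49477255 counts, and levels are given as CPM, counts scaled to a common library size with TMM factors. Pck1, the targeted gene, had 551 to 2012 CPM among controls and 339 to 948 CPM among HSC-PCK1-KO libraries. Most Pck1 in liver comes from hepatocytes, so these values say nothing on whether stellate cells lost it. Libraries correlated at 0.976 to 0.99 within and 0.979 to 0.991 between groups. The summed level of 12 hepatocyte markers lay between 114100 and 137200 CPM, the most of any marker list. The 16 sinusoidal endothelial markers summed to 468.8 to 522.4 CPM among controls and 413.2 to 549.2 CPM among HSC-PCK1-KO libraries. The 10 Kupffer cell markers summed to 561.1 to 715.8 and 534.8 to 674.4 CPM. C6 and Cd5l, at means of 193 and 169 CPM, were their largest terms. Cdh5 was on both the endothelial and the Kupffer list, and Id3 was also on the list of BMP targets. No marker in either list was at 0 in every library. In bulk liver, fewer cells of a type and less RNA per cell cannot be told apart.

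Hamp (ENSMUSG00000050440.9), which encodes the hormone, had 123, 246, 264 and 325 CPM in control replicates 1 to 4. It had 280.3, 280.2, 153 and 360.0 CPM in HSC-PCK1-KO replicates 1 to 4. Each genotype thus held 1 library well below its other 3, control replicate 1 and HSC-PCK1-KO replicate 3, and the groups overlapped nearly from end to end. The means were 239 ± 84.9 CPM in control and 268 ± 85.8 CPM in the HSC-PCK1-KO group (n = 4, SD), so the log2 fold change was 0.16 (SE 0.34, 95% interval -0.61 to 0.94, edgeR adjusted p = 0.9998). Leaving out control replicate 1 gave -0.053, and leaving out HSC-PCK1-KO replicate 4 gave -0.0099. The highest library had 2.94 times the lowest, and the coefficient of variation within a group, 35.5% in control and 32% in HSC-PCK1-KO, stood far above counting noise of about 0.982% and 0.915%.

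Hamp2 (ENSMUSG00000056978.9) is a neighbouring duplicate of Hamp in the mouse, whose product is not known to lower blood iron. It had 55.9, 37.2, 77.1 and 49.4 CPM in control replicates 1 to 4. In HSC-PCK1-KO replicates 1 to 4 it had 93.1, 36.5, 39.1 and 107.9 CPM. The HSC-PCK1-KO libraries fell into a higher and a lower pair on either side of most controls. With so wide a spread the log2 fold change was 0.33 (SE 0.42, 95% interval -0.65 to 1.31), and limma-voom with sample weights put it at -0.019. With a library left out it ran from 0.035, without HSC-PCK1-KO replicate 4, to 0.55, without control replicate 3. The longest coding transcripts of the genes were 94.6% identical over 410 aligned bases. No stretch of 100 bases was shared between them and 16.6% of the 50-base stretches of Hamp were. Whether a read can match both genes thus depends on its length, which is not given here. The labels do not say how reads matching both were counted. With the counts of both genes summed, the log2 fold change was 0.20. Of the exon bases of Hamp2, 15.3% overlap those of Gm44662, a long non-coding RNA gene, on the opposite strand in GENCODE M21.

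The promoters of the pair show how alike they are and where they part, beside a response to BMP that is known for Hamp. The 250 bases before each start are shown from RefSeq (GRCm38.p6, minus strand), with the place of the BMP response element core GGCGCC and of the STAT site TTCTTGGAA of Hamp in capitals in both. Hamp lies at chr7:30944030-30944279 and Hamp2 at chr7:30924182-30924431.
Hamp: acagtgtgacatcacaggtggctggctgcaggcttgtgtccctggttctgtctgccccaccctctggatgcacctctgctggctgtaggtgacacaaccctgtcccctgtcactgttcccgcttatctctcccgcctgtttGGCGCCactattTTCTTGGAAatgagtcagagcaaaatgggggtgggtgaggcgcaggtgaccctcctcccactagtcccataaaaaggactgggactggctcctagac
Hamp2: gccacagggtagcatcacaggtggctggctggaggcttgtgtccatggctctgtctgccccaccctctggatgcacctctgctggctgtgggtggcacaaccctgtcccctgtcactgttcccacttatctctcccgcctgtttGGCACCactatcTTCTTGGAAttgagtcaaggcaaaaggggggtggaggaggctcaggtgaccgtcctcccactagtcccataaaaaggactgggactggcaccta
Over the 297 bases aligned between the 300-base windows, which run 50 bases past the start, 92.9% were identical. Of 21 substitutions, 1 fell in the capitals. It is G145A, counted from the 5′ end of the Hamp window, with the base of Hamp first, and it turns GGCGCC into GGCACC in Hamp2. TTCTTGGAA stands in both windows. Searched on both strands of all 32851 promoter windows of that length, GGCGCC, which is its own reverse complement, was in 11.9% and TTCTTGGAA or its complement TTCCAAGAA in 0.417%. Among the other 8 genes, GGCGCC also stood in 1 of the 2 windows of Tfrc and in none of Bmp6, Tfr2 or Hfe. Bmp2, Id1, Smad7 and Slc40a1 had no window to search. The motifs do not overlap each other. These are matches of letters, not measured binding. In these livers Hamp and Hamp2 had a Pearson's r of 0.38 over the 8 libraries (exact permutation p = 0.352, adjusted p = 0.582 over 10 relations).

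Bmp6 (ENSMUSG00000039004.7), the endothelial ligand that follows liver iron, had the smallest ratio of highest to lowest library of the 10, at 1.2. It had 4.34, 4.2, 3.74 and 4.02 CPM in control replicates 1 to 4. It had 4.18, 4.36, 4.43 and 4.47 CPM in HSC-PCK1-KO replicates 1 to 4. The values crowded together, and 3 of 4 HSC-PCK1-KO libraries lay above every control. The log2 fold change was 0.10 (SE 0.11, 95% interval -0.14 to 0.33, edgeR adjusted p = 0.9998). With 177 to 220 counts per library, counting noise alone gives a coefficient of variation near 7.19% in control and 6.92% in HSC-PCK1-KO, and the observed ones were 6.36% and 2.96%, so no difference between livers was detectable beyond counting. Of its exon bases, 5.74% overlap those of Txndc5 on the opposite strand in GENCODE M21.

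Bmp2 (ENSMUSG00000027358.7), the other endothelial ligand of hepcidin control, had 8.38, 10.3, 10.6 and 9.46 CPM in control replicates 1 to 4. It had 10.01, 8.37, 11.3 and 12.6 CPM in HSC-PCK1-KO replicates 1 to 4. The lowest value of each group was the same to within counting noise, and the highest of all was HSC-PCK1-KO replicate 4. Between genotypes the log2 fold change was 0.13 (SE 0.13, 95% interval -0.17 to 0.42), and without HSC-PCK1-KO replicate 4 it was 0.032. Summed sinusoidal endothelial markers overlapped between the genotypes too, as given above.

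Id1 (ENSMUSG00000042745.10), a helix-loop-helix inhibitor that BMP-SMAD signalling switches on directly, had the log2 fold change farthest from 0 of the 10. It had 3.86, 4.10, 3.80 and 5.78 CPM in control replicates 1 to 4. It had 3.91, 7.08, 3.01 and 10.2 CPM in HSC-PCK1-KO replicates 1 to 4. The lowest and the highest library were both HSC-PCK1-KO, and the spread was wider there, with SDs of 3.25 against 0.94 CPM, a difference that was not tested. The log2 fold change of 0.46 (SE 0.36, 95% interval -0.36 to 1.28, edgeR adjusted p = 0.9998) was 0.090 without HSC-PCK1-KO replicate 4.

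Smad7 (ENSMUSG00000025880.12), an inhibitory SMAD that is induced by the pathway and restrains it, had 6.58, 12.2, 8.96 and 8.18 CPM in control replicates 1 to 4. It had 5.79, 8.95, 8.02 and 11.5 CPM in HSC-PCK1-KO replicates 1 to 4. The groups overlapped throughout, with a log2 fold change of -0.067 (SE 0.23, 95% interval -0.59 to 0.45). Without control replicate 2 it was 0.12 and without HSC-PCK1-KO replicate 1 it was 0.080. On the list of BMP targets 0 of 5 passed, 4 being positive and 1 negative. Id2 had 141 ± 14.9 CPM among controls and 153 ± 41.9 CPM in the HSC-PCK1-KO group, Atoh8, a BMP-induced transcription factor, 13.1 ± 5.12 and 14.1 ± 3.15 CPM, and Smad6, another inhibitory SMAD, 6.48 ± 0.165 and 6.03 ± 0.821 CPM (SD, n = 4).

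Tfr2 (ENSMUSG00000029716.14), a hepatocyte sensor of iron-laden transferrin, was the gene whose group means lay closest. It had 343, 442, 402 and 352 CPM in control replicates 1 to 4. It had 412, 399, 366 and 360.5 CPM in HSC-PCK1-KO replicates 1 to 4. All HSC-PCK1-KO values fell inside the control range. Accordingly, the log2 fold change was -0.0018 (SE 0.10, 95% interval -0.22 to 0.22) and was among the narrowest of the 10.

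Hfe (ENSMUSG00000006611.16), the MHC-like protein that is mutated in hereditary haemochromatosis and aids hepcidin induction, had 52.5, 55.1, 47.8 and 52.0 CPM in control replicates 1 to 4. It had 60.3, 52.7, 58.4 and 48.2 CPM in HSC-PCK1-KO replicates 1 to 4. The lowest value of each group was nearly equal, and 2 HSC-PCK1-KO libraries lay above every control. The log2 fold change was 0.082 (SE 0.083, 95% interval -0.10 to 0.27). Hjv, which encodes the BMP co-receptor hemojuvelin, had 140.3 ± 4.58 CPM among controls and 145 ± 6.82 CPM in the HSC-PCK1-KO group (SD, n = 4), and Tmprss6, which encodes a protease that cleaves hemojuvelin, 503 ± 51.9 and 499.9 ± 34.9 CPM. These last 2 genes were chosen for their role after their values were seen.

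**Figure D2:**
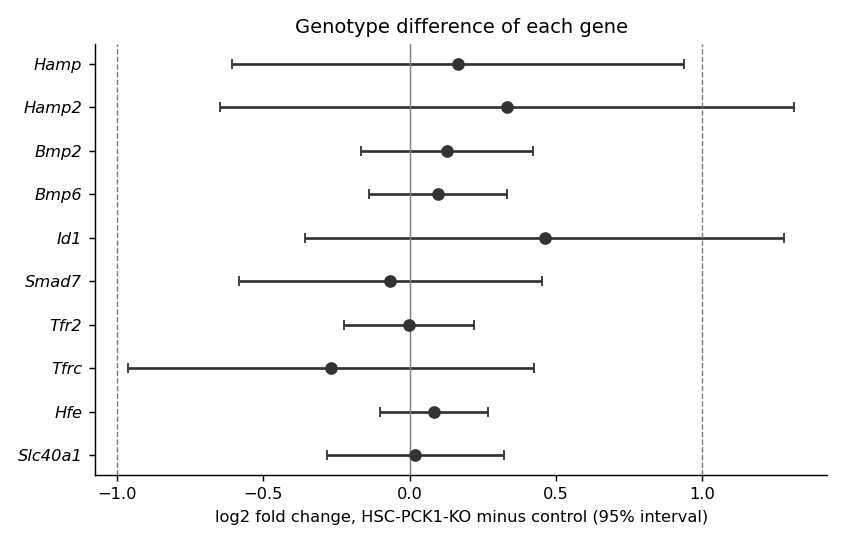
Log2 fold change of each of the 10 genes, HSC-PCK1-KO minus control, as points with 95% intervals from edgeR's quasi-likelihood fit over 4 against 4 libraries, with dashed lines at a 2-fold change. Every interval includes 0. Those of Tfr2, Hfe and Bmp6 are the narrowest, and those of Hamp2 and Id1 pass the line for a 2-fold rise.

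Tfrc and Slc40a1 are shown with the iron responsive elements of their transcripts, since these hairpins are what iron regulatory proteins hold. A search for C, 5 bases, the loop CAGTGN and 5 bases that pair with the first 5 (G-T pairs allowed) was made in the longest coding transcript of each gene in GENCODE M21 (GRCm38), on the transcript strand. The loop is in capitals.
Tfrc, 3′ UTR, element 1: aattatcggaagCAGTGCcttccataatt
Tfrc, 3′ UTR, element 2: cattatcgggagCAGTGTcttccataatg
Tfrc, 3′ UTR, element 3: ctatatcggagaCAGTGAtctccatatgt
Tfrc, 3′ UTR, element 4: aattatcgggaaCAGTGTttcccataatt
Slc40a1, 5′ UTR: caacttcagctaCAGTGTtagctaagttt
The other 8 genes had 0 matches. Over the coding transcripts of 21877 genes, 294 genes (1.34%) had at least 1 match, and 1 gene had 3 or more, which was Tfrc with its 4. Elements in the 3′ UTR are known to protect a transcript from decay when bound, and those in the 5′ UTR to block its translation, so of the pair it is the level of Tfrc mRNA that iron is known to set in this way. A match is a description and not a measured site.

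Tfrc (ENSMUSG00000022797.17) had 55.5, 38.2, 26.5 and 23.8 CPM in control replicates 1 to 4. It had 32.6, 25.6, 39.5 and 21.8 CPM in HSC-PCK1-KO replicates 1 to 4. Control replicate 1 was the highest library and HSC-PCK1-KO replicate 4 the lowest, the reverse of their places for Hamp. The means were 36 ± 14.4 CPM in control and 29.9 ± 7.79 CPM in the HSC-PCK1-KO group (n = 4, SD), so the log2 fold change was -0.27 (SE 0.30, 95% interval -0.96 to 0.42, edgeR adjusted p = 0.9998). Without control replicate 1 it was 0.019. Tfrc is also high in dividing and erythroid cells. The 8 proliferation markers summed to 8.14 to 26.7 CPM among controls and 11.5 to 29.9 CPM among HSC-PCK1-KO libraries. Of 13 erythroid markers 7 were tested, and these summed to 203.3 to 293.4 and 174.5 to 351.8 CPM. Alas2, at a mean of 133 CPM, was the largest term of that sum and the only 1 with a negative log2 fold change (-0.073). The other 6 were positive, the median of the 7 was 0.49, and 0 of them passed. The part of either cell type in the values of Tfrc was not tested.

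Slc40a1 (ENSMUSG00000025993.11), the iron exporter of hepatocytes and Kupffer cells, had 153, 130.4, 174 and 187 CPM in control replicates 1 to 4. It had 174, 174, 127 and 178 CPM in HSC-PCK1-KO replicates 1 to 4. Of the HSC-PCK1-KO libraries, 3 were nearly equal and replicate 3 stood below them. The log2 fold change was 0.019 (SE 0.14, 95% interval -0.28 to 0.32, edgeR adjusted p = 0.9998), and it changed sign in 5 of the 8 fits that left out 1 library.

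Set in order by level per length, the mean over 8 libraries in CPM per kilobase of exon was 619 for Hamp, 106 for Hamp2, 88.7 for Tfr2, 18 for Slc40a1, 14.9 for Hfe, 5.33 for Tfrc, 4.49 for Id1, 2.85 for Bmp2, 1.94 for Smad7 and 1.08 for Bmp6. The ranges of Hamp2 (62.7 to 185) and Tfr2 (79.2 to 102) overlapped, as did those of Slc40a1 (14.2 to 20.8) and Hfe (13.4 to 16.9) over all exons, of Tfrc (3.53 to 8.98) and Id1 (2.60 to 8.76), of Id1 and Bmp2 (2.35 to 3.56), and of Bmp2 and Smad7 (1.28 to 2.70), so these neighbours were not set apart by this measure. Hamp, at 299 to 878, lay above every value of the others, and Bmp6, at 0.959 to 1.15, below. With the length of the longest coding transcript in place of all exons the order was the same. Slc40a1, with 9000 exon bases in GENCODE M21 against 3370 in that transcript, rose to 48.1, while Hfe stayed at 14.9.

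Across the 8 livers, Hamp and Tfrc moved in opposite directions. Of 10 pairs of genes chosen for their known links, this was the only one past an adjusted p of 0.05. Pearson's r was -0.919 for log2 CPM (exact two-sided permutation p = 0.000248, adjusted p = 0.00248) and Spearman's rho was -0.929 (exact permutation p = 0.00223, adjusted p = 0.0223). The 10 genes had been chosen with earlier results of these data known, so these p-values are not those of a blind choice. The library with the lowest Hamp, control replicate 1, had the highest Tfrc, and the next lowest, HSC-PCK1-KO replicate 3, had the next highest. At the other end, HSC-PCK1-KO replicate 4 had the highest Hamp and the lowest Tfrc, and control replicate 4 was next for both. Without the 2 libraries farthest from the median of Hamp, control replicate 1 and HSC-PCK1-KO replicate 3, r was -0.824. With each library taken as its deviation from its own group mean, r was -0.918 (exact permutation within groups, p = 0.00347, adjusted p = 0.0347), so the correlation was as close within the genotypes. It passed in each of the 8 fits that left out 1 library, with r from -0.955 to -0.826 and adjusted p from 0.00198 to 0.0288.

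**Figure D3:**
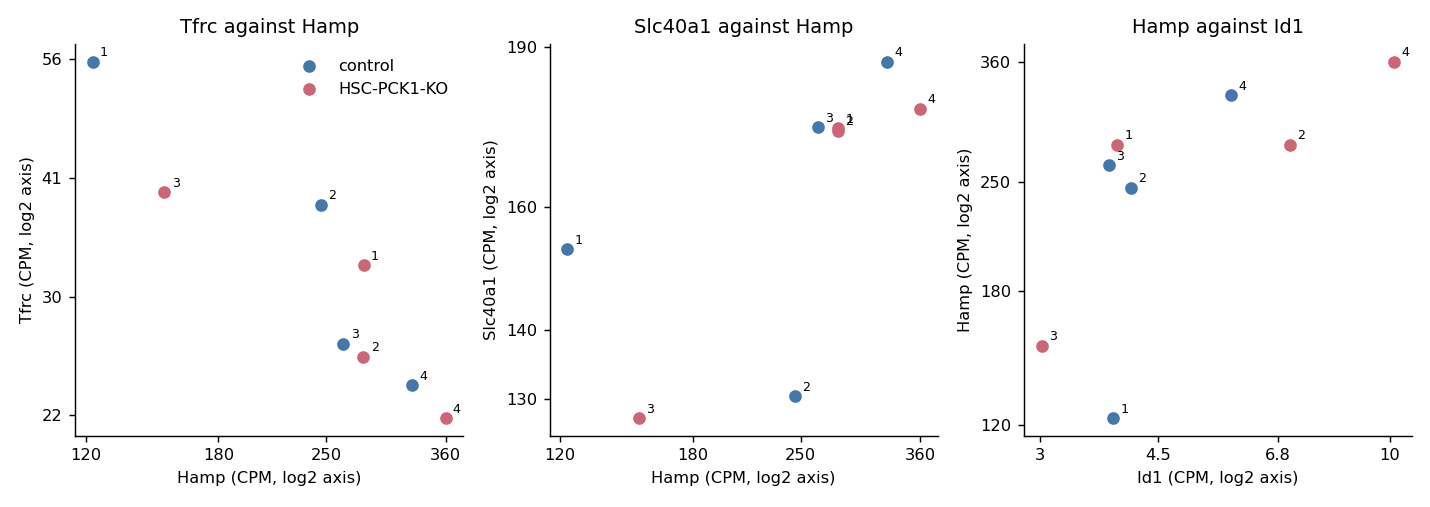
Each point is a library, control in blue and HSC-PCK1-KO in red, labelled with its replicate number, and all axes are CPM on a log2 scale. Tfrc falls as Hamp rises in both genotypes (r = -0.919), while Slc40a1 against Hamp (r = 0.659) and Hamp against Id1 (r = 0.688) slope upward with more scatter.

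Set against all genes, so strong a relation with Hamp was uncommon but not unique to Tfrc. Of the other 15668 genes tested, 14 (0.0894%), Tfrc included, had an r with Hamp at least as far from 0 as that of Tfrc. Those with an r as negative or more so were 6, again with Tfrc counted. An r beyond 0.7 in size was found in 5.34% of genes. The main axis of difference between the livers, the first principal component with 47.5% of the variance of the 500 most variable genes, did not go with Hamp (size of r 0.003) and went little with Tfrc (0.236).

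Of the other 9 pairs, none passed with all 8 libraries. Id1 and Hamp, both SMAD targets, had an r of 0.688 (exact permutation p = 0.0578, adjusted p = 0.193) and a rho of 0.738 (exact permutation p = 0.0458, adjusted p = 0.153), and r was 0.64 without HSC-PCK1-KO replicates 2 and 4, the libraries farthest from the median of Id1. Hamp and Slc40a1 had an r of 0.659 (exact permutation p = 0.0571, adjusted p = 0.193) and a rho of 0.833 (exact permutation p = 0.0154, adjusted p = 0.0769), and r was 0.67 without HSC-PCK1-KO replicate 3 and control replicate 1 together. Without control replicate 1 alone that r was 0.824 with an adjusted p of 0.0288 by exact permutation, so this library decided the call. Neither ligand passed with Hamp, Bmp6 having an r of -0.258 with it (exact permutation p = 0.548) and Bmp2 one of 0.323 (exact permutation p = 0.439). Nor did Bmp6 pass with Id1 (r = 0.301, exact permutation p = 0.466) or Smad7 (r = 0.062, exact permutation p = 0.892), and Bmp6, as above, varied no more than counting noise. Id1 and Smad7 had an r of 0.466 (exact permutation p = 0.241) and Tfr2 and Hamp one of 0.3 (exact permutation p = 0.456). All of these had adjusted p-values of at least 0.582 for r and 0.598 for rho over the 10 relations, by exact permutation. Spearman's rho was 0.286 for Bmp6 with Id1, 0.095 for Bmp6 with Smad7, -0.024 for Bmp6 with Hamp, 0.167 for Bmp2 with Hamp and 0.429 for Id1 with Smad7. Without the 2 libraries farthest from the median of the first gene, r for Id1 with Smad7 was 0.099, for Tfr2 with Hamp -0.05 and for Hamp with Hamp2 0.488, so none of these had a settled size.

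Over all 45 pairs of the 10 genes, a family looked at after the data were seen, Hamp with Tfrc was the only pair to pass by Pearson's r (adjusted p = 0.0112 over 45, exact permutation). By Spearman's rho it did not pass over the 45 (adjusted p = 0.1, exact permutation). Tfrc lay opposite to the same partners that went with Hamp, with an r of -0.714 with Id1 (exact permutation p = 0.0416, adjusted p = 0.52) and of -0.7 with Slc40a1 (exact permutation p = 0.0533, adjusted p = 0.52), neither of which passed.

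**Figure D4:**
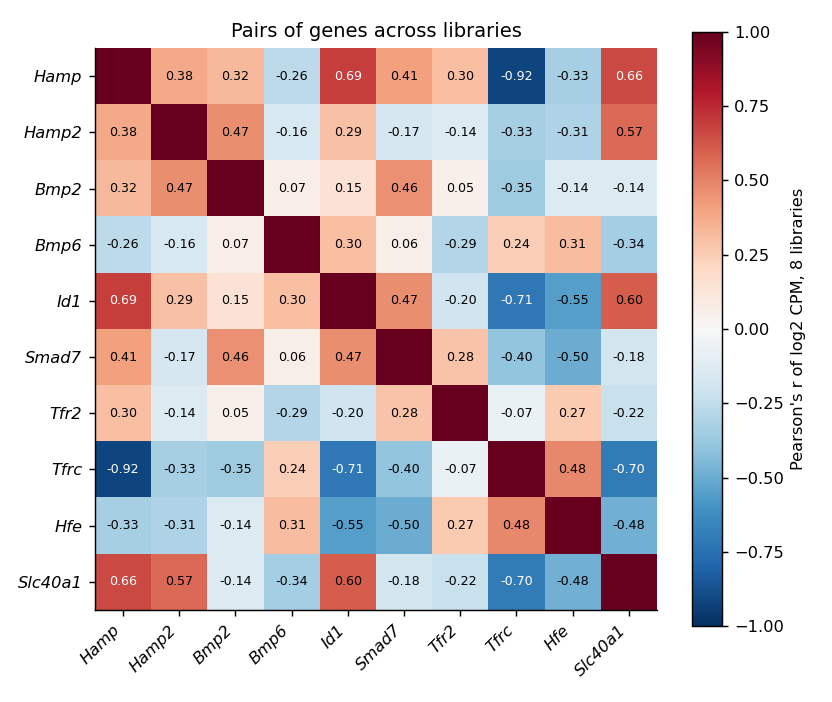
Pearson's r of log2 CPM over the 8 libraries for each of the 45 pairs of genes, red for positive and blue for negative. The darkest cell is Hamp with Tfrc at -0.92, and the row of Bmp6 is pale throughout.

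The genes most like a member were those with the highest Pearson's r over the 8 libraries among 11490 named genes with a mean of at least 1 CPM, given here as a description. For Hamp they were Rufy3 (0.958), Arhgap6 (0.935) and Dop1a (0.934). For Tfrc they were Uso1 (0.956), a vesicle tethering factor, Thrsp (0.944), a regulator of lipid synthesis, and Pex5 (0.941), the receptor for peroxisomal import. Thrsp was, like Tfrc, highest in control replicate 1, at 566 CPM, and lowest in HSC-PCK1-KO replicate 4, at 139.6 CPM. For Bmp6 they were Rnf8 (0.931), Haus6 (0.919) and Smarcc1 (0.904). As given above, Bmp6 varied no more than counting noise, so these values cannot be read as shared differences between livers. For Slc40a1 they were Fbxl21 (0.982), Phf7 (0.978) and Rin2 (0.96). Picked as the highest of 11490 genes over 8 libraries, all these r values can be large without any relation, and they were not tested.

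The wider pathway was described over lists of related genes. On 7 lists of other BMP, inflammatory, iron and heme genes, 0 of the 90 genes tested passed in either direction, and 3 (3.33%) had an unadjusted p under 0.05, against 2.36% of all genes. These were Bmp4, Steap3 and Cd163. The list medians lay between -0.061 for heme and hemoglobin recycling and 0.085 for BMP targets.

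Among BMP ligands and regulators, 0 of 13 passed, 8 being positive and 5 negative. Bmp4, a ligand, had 2.76 ± 0.477 CPM in control and 2.04 ± 0.375 CPM in the HSC-PCK1-KO group (n = 4, SD), so the log2 fold change was -0.44 (SE 0.18, edgeR adjusted p = 0.9998). Bmp7, another ligand, had 0.66 to 0.893 CPM among controls and 0.894 to 1.21 CPM among HSC-PCK1-KO libraries. It was the 1 of the 90 genes (1.11%) whose groups did not overlap, against 1.53% of all genes, so the count was no larger than the background. Bambi, a decoy receptor, had 2.55 ± 0.111 and 3.21 ± 0.562 CPM. Erfe, the erythroid hormone that lowers hepcidin, had 8 counts over all 8 libraries and was not tested, nor were Nog and Grem1 at 0.

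Of the BMP receptors and SMADs, 0 of 12 passed and the median was -0.008. Eng, an endothelial co-receptor, had 71.2 ± 4.32 CPM among controls and 64.8 ± 3.95 CPM in the HSC-PCK1-KO group, Smad4, the SMAD shared by all branches, 23.1 ± 0.858 and 24.1 ± 0.808 CPM, and Smad9, a BMP-activated SMAD, 4.15 ± 1.35 and 3.35 ± 2.05 CPM (SD, n = 4). Smad9, at a log2 fold change of -0.31, moved to -0.83 when HSC-PCK1-KO replicate 2 was left out and to -0.050 when control replicate 3 was, passing the adjusted test in neither fit.

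In the interleukin 6 and acute phase arm, 0 of 21 passed, 11 being positive and 10 negative. Saa1, an acute phase apolipoprotein, had 115, 47.7, 102 and 231 CPM in control replicates 1 to 4. It had 1166, 79.5, 109.8 and 168 CPM in HSC-PCK1-KO replicates 1 to 4. HSC-PCK1-KO replicate 1 alone held its log2 fold change at 1.62, and without it the value was -0.06. Crp had 342 ± 16.0 CPM among controls and 389.7 ± 46.6 CPM in the HSC-PCK1-KO group, and Orm1, another acute phase protein, 443 ± 63.6 and 537 ± 143 CPM (SD, n = 4). For Orm1, too, the log2 fold change of 0.28 rested on HSC-PCK1-KO replicate 1, and was 0.080 without it. Il6 had 15 counts in all and was not tested.

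Iron uptake, storage and release genes gave 0 of 21, with a median of 0.017. Steap3, a ferrireductase of the transferrin cycle, had 24.8, 34.2, 28.7 and 28 CPM in control replicates 1 to 4. It had 34.6, 33.7, 35.3 and 33.9 CPM in HSC-PCK1-KO replicates 1 to 4. The HSC-PCK1-KO values were close together, and control replicate 2 lay among them. For Steap3 the log2 fold change was 0.25 (SE 0.091, unadjusted p = 0.0207, adjusted p = 0.9998 in edgeR). Slc39a14, the hepatocyte importer of iron not bound to transferrin, had 209 ± 21.3 CPM among controls and 183 ± 9.92 CPM in the HSC-PCK1-KO group, and Ncoa4, the receptor for ferritin turnover, 49.3 ± 4.21 and 44.3 ± 2.97 CPM (SD, n = 4).

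Iron regulatory and oxygen sensing genes gave 0 of 8. Fbxl5, the iron-sensing ligase subunit that degrades iron regulatory protein 2, had 31.1 ± 1.6 CPM among controls and 34 ± 1.36 CPM in the HSC-PCK1-KO group. Egln3, a prolyl hydroxylase, had 20.4 ± 2.09 and 23.0 ± 2.46 CPM, and Vegfa, a hypoxia target, 150.3 ± 15.2 and 131 ± 12.4 CPM (SD, n = 4).

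Heme and hemoglobin recycling genes gave 0 of 10. Cd163, the macrophage receptor for haptoglobin-bound hemoglobin, had 14.3, 13.1, 9.79 and 11.5 CPM in control replicates 1 to 4. It had 6.52, 6.03, 11.2 and 5.87 CPM in HSC-PCK1-KO replicates 1 to 4. All HSC-PCK1-KO libraries but replicate 3 lay below every control. For Cd163 the log2 fold change was -0.72 (SE 0.22, unadjusted p = 0.00826, adjusted p = 0.9998 in edgeR), and without HSC-PCK1-KO replicate 3 it was -0.99. Of the 10 Kupffer cell markers, 6 were negative and 4 positive, and the list's median was -0.051. Of 10 recruited macrophage markers, 9 were negative and 1 positive, with a median of -0.218, and 0 passed. The part of either cell type in the value of Cd163 was not tested. Flvcr2, a choline and heme transporter family member, had 4.62 ± 1.61 CPM among controls and 6.80 ± 1.58 CPM in the HSC-PCK1-KO group, and Lrp1, a hepatocyte receptor for heme bound to hemopexin, 754 ± 90.2 and 679 ± 35.9 CPM (SD, n = 4).

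**Figure D5:**
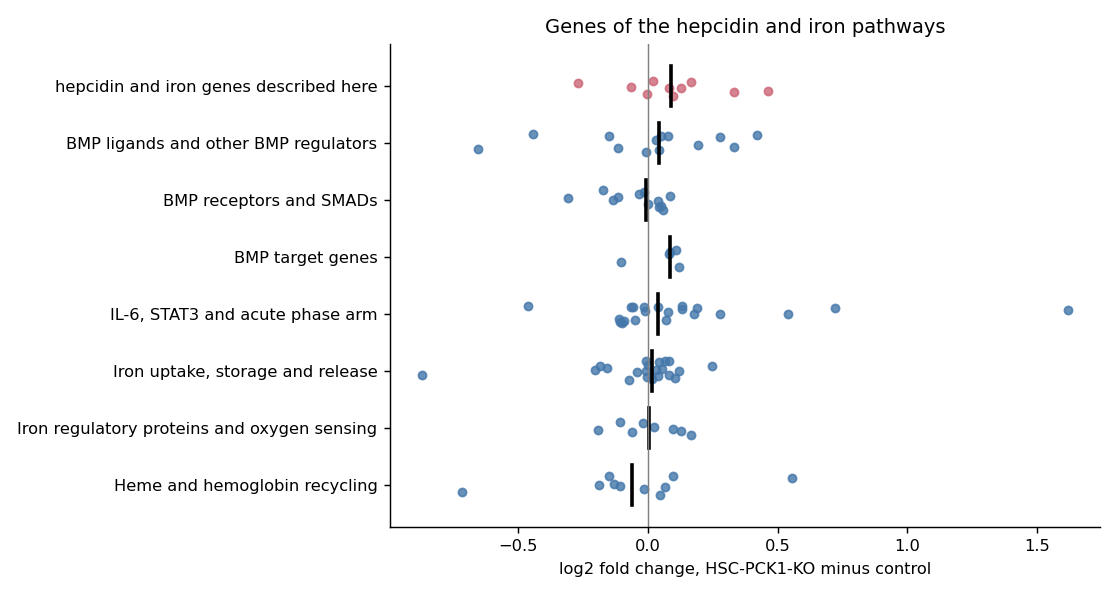
Log2 fold change, HSC-PCK1-KO minus control, of every tested gene on the list of 10 genes (red) and on 7 lists of related genes (blue), with the median of each list as a black bar. The medians lie near 0, from -0.061 to 0.09, and the point farthest out is Saa1 at 1.62.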

How the data were processed

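For each of 8 libraries the authors deposited raw counts over 56953 Ensembl identifiers. GRCm39 and R 4.3.2 are named in the submitters' processing notes. Aligner, counter, annotation and strand setting: not given in the sources used here. Per the labels' protocols the libraries were made from poly(A) RNA with dUTP strand marking and sequenced as read pairs. Symbols came by identifier from GENCODE M21 (GRCm38), which named 52029 identifiers, and Hjv was matched through its older symbol.

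In R 4.3.3, filterByExpr kept 15669 genes, TMM factors scaled the libraries, and edgeR 4.0.16 (quasi-likelihood F-test, robust dispersion, genotype as the only term) compared HSC-PCK1-KO with control, with p-values adjusted by Benjamini-Hochberg over those 15669 genes and called under 0.05. SEs on the log2 scale had a median of 0.132 over genes. Relations between genes used log2 CPM with a prior count of 2 and all 40320 pairings of the 8 libraries. Alternatives tried were DESeq2 1.42.0, a block for the replicate number, limma-voom (3.58.1) with sample weights, upper quartile or RLE factors, testing genes with no filter or with at least 1 CPM in 4 libraries, an adjusted p of 0.1, summed Hamp and Hamp2 counts, a prior count of 0.5, deviations from group means, and leaving out each library. The fit was also run on simulated data, and the outcome is not given here.

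The 10 genes and the lists were chosen with earlier results of these data known. All 10 genes were named, with the 3 members of smallest p on each pathway list and the 3 genes most like Hamp, Bmp6, Tfrc and Slc40a1; other names were chosen after their values were seen. Each library has its own number in its title and was taken as 1 liver, though separate mice are not stated, in which case p-values cover only the spread among these 8, which may be technical. All libraries are labelled as 1 batch.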

Additional observations from a re-analysis of the deposited data

Results flagged for a closer look

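In 9 of 108 groups of 4 libraries, taken over the genes and marker sums looked at, 1 library lay far from the other 3 by Dixon's criterion. Chance would give about 5.4 for independent, normally distributed groups. The groups share libraries, and some genes were chosen for their likeness to Hamp, so 9 cannot be judged against 5.4. Id1 stood at 5.78 CPM in control replicate 4, against 3.80 to 4.10 in the other 3 controls. Slc40a1 stood at 127 CPM in HSC-PCK1-KO replicate 3, against 174 to 178 CPM. In the same library Cd163 was at 11.2 CPM, against 5.87 to 6.52, and Arhgap6, a gene chosen for its likeness to Hamp, at 3.51 CPM, against 5.89 to 6.18. In HSC-PCK1-KO replicate 1 Saa1 was at 1166 CPM, against 79.5 to 168, Slc39a14 at 169 CPM, against 187 to 190.2, and the stellate cell marker sum at 479 CPM, against 573 to 580.4. Dop1a, also chosen for its likeness to Hamp, was at 10.5 CPM in control replicate 1, against 13.4 to 14.0. The erythroid marker sum was 293 CPM in control replicate 2, against 203 to 208 in the other controls. Alas2 alone ran from 104 to 206 CPM among controls, so this sum rested largely on that gene. The most abundant globin genes ran from 24.0 to 53.9 CPM (Hbb-bs) and from 29.4 to 38.4 CPM (Hba-a1).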

How the results depend on the processing

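The count of 0 among the 10 genes, and of 0 among the 90 related genes, was the same under every alternative run, including an adjusted p of 0.1, the replicate block (0 and 0) and each left-out library. The block changed no call, and replicate numbers did not pair the libraries, same-numbered ones correlating at -0.329 to 0.058. Over all genes the count of 0 was 3 with DESeq2 and 0 to 1 with a library left out, the 1 coming without control replicate 1. Signs turned for Hamp2 with limma-voom (-0.019), for Slc40a1 with limma-voom (-0.0016), and for Tfr2 with upper quartile factors (0.0048), no filter (0.0022), a minimum of 1 CPM (0.0007), limma-voom (0.018) and the replicate block (0.0034). With a library left out, log2 fold changes ran from -0.053 to 0.36 for Hamp, 0.035 to 0.55 for Hamp2, -0.24 to 0.12 for Smad7, -0.053 to 0.072 for Tfr2, -0.43 to 0.019 for Tfrc, -0.070 to 0.12 for Slc40a1, -0.019 to 0.28 for Id2, -0.086 to 0.29 for Atoh8 and -0.06 to 2.11 for Saa1. The number of relations that passed was 1, and 1 to 2 with a library left out, the second being Hamp with Slc40a1 without control replicate 1 (r = 0.824). Pearson's r turned sign for Bmp6 with Id1 (-0.009 to 0.556), Bmp6 with Smad7 (-0.164 to 0.216), Bmp2 with Hamp (-0.094 to 0.6) and Tfr2 with Hamp (-0.116 to 0.492). The cause was not tested. Depth limits Bmp6, at 177 to 220 counts a library, where the spread was no larger than counting noise.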
